A study of Mus musculus with 4 samples.

Results

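The imprinted genes H19, Igf2, Igf2r, Peg3, Usp29, Zim1, Nespas, Gnas, Snrpn and Kcnq1ot1 were followed in mouse embryonic stem cells with a disrupted Drosha gene and in wild-type cells. They are the rows of the count table whose Ensembl gene carries these symbols, 10 of 43629 gene identifiers, and they fall into 6 imprinted domains outside the Dlk1-Dio3 locus. All 10 were matched and all 10 passed the filter on low counts. On build mm10, 7 of them lie on chromosome 7, Nespas and Gnas on chromosome 2, and Igf2r on chromosome 17.

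The data are poly(A) RNA-seq read counts from 4 libraries of embryonic stem cells of 129/Ola background, labelled as blastocyst-derived and grown in serum plus LIF. Knockout library KO1 carries a Drosha allele without the proline-rich region and KO2 an allele without the arginine- and serine-rich region, each made with paired CRISPR/Cas9 cuts and each at passage 7. WT1 and WT2 are the E14 line, a widely used embryonic stem cell line, at passages 33 and 42, and are labelled as re-used samples. The knockout titles carry the mark d5, which the labels do not explain, and no label says whether a knockout library is 1 clone or whether libraries of a group were separate cultures. Genotype, passage, allele and the origin of the libraries cannot be told apart, and the p-values rest on library-to-library spread alone, which may be technical.

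Depth ranged from 29264632 to 42322129 counts per library, and a single count stood for 0.0236 to 0.0342 CPM (counts per 1000000 counts of the library, with TMM scaling in all values that follow). Drosha, whose product is the nuclear endonuclease of microRNA biogenesis, had 158 and 158 CPM in KO1 and KO2, against 364 and 357 CPM in WT1 and WT2, and gene counts do not show which part was deleted. Of 10 stem cell markers tested 1 rose (Utf1, 304 and 261 CPM in KO1 and KO2, against 82.8 and 48.4 CPM in WT1 and WT2, log2 fold change 2.11, or 0.57 with the libraries' GC content and length trends removed) and 0 fell, and the core markers Pou5f1, Nanog and Sox2 had 320 to 1130 CPM in every library. The knockout libraries resembled each other far more than the wild-type libraries did: taking genes whose counts in a pair came to 50 or more, the chi-square per degree of freedom was 2.26 between KO1 and KO2 and 167 between WT1 and WT2. Across all 17022 genes tested, 5.45% passed an adjusted p of 0.05 (edgeR quasi-likelihood test, Benjamini-Hochberg), 3.51% upward and 1.94% downward, and the smallest adjusted p was 0.0482. The median log2 fold change of knockout over wild type was 0.30 on chromosome 7, 0.29 on chromosome 17 and -0.01 on chromosome 2, against -0.02 over all genes.

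Imprinted genes are transcribed mainly from the chromosome inherited from a single parent. The choice is set by DNA methylation laid down in the egg or sperm at imprinting control regions, and in several domains a long non-coding RNA made from such a region silences its neighbours on the same chromosome. H19, Igf2r and Zim1 are known in mouse as maternally expressed, and Igf2, Peg3, Usp29, Nespas, Snrpn and Kcnq1ot1 as paternally expressed, while Gnas is transcribed from both chromosomes in most cells. Embryonic stem cells can lose or gain such marks in culture. Gene counts do not show which parental copy a read came from.

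Nespas rose in the knockouts and Usp29 fell, and the other 8 genes did not pass, which makes 1 of 10 in each direction beside 3.51% and 1.94% of all genes. Fitted log2 fold changes were below 0 for 8 of the 10, with a median of -0.74, or -0.34 with these trends removed, against -0.02 over all genes tested in both fits. Both knockout libraries lay below both wild-type libraries for H19, Igf2r, Usp29, Zim1 and Kcnq1ot1 and above them for Nespas and Gnas. Groups thus did not overlap for 7 of 10 genes, but 71.2% of all genes behaved so (36.5% higher and 34.8% lower in the knockouts), so the share itself is no result about imprinted genes. Zim1 overlapped with library totals alone, and with GC content and length trends removed Zim1, Gnas and Kcnq1ot1 overlapped while Igf2 became lower. All 4 ratios of a knockout over a wild-type library exceeded 2-fold for H19, Usp29 and Nespas, 3 of 10 genes beside 10.5% of all genes. Of these Nespas was higher in the knockouts, beside 7.90% of all genes, and H19 and Usp29 were lower, beside 2.63%. The 3 maternally expressed genes were all among those lower in the knockouts, and of the 6 paternally expressed genes 2 were lower, 1 was higher and 3 overlapped. None of the 3 passed, and Phlda2 and Cdkn1c, maternally expressed neighbours of Kcnq1ot1, were higher in both knockouts. A difference by parental copy was not tested.

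**Figure D1:**
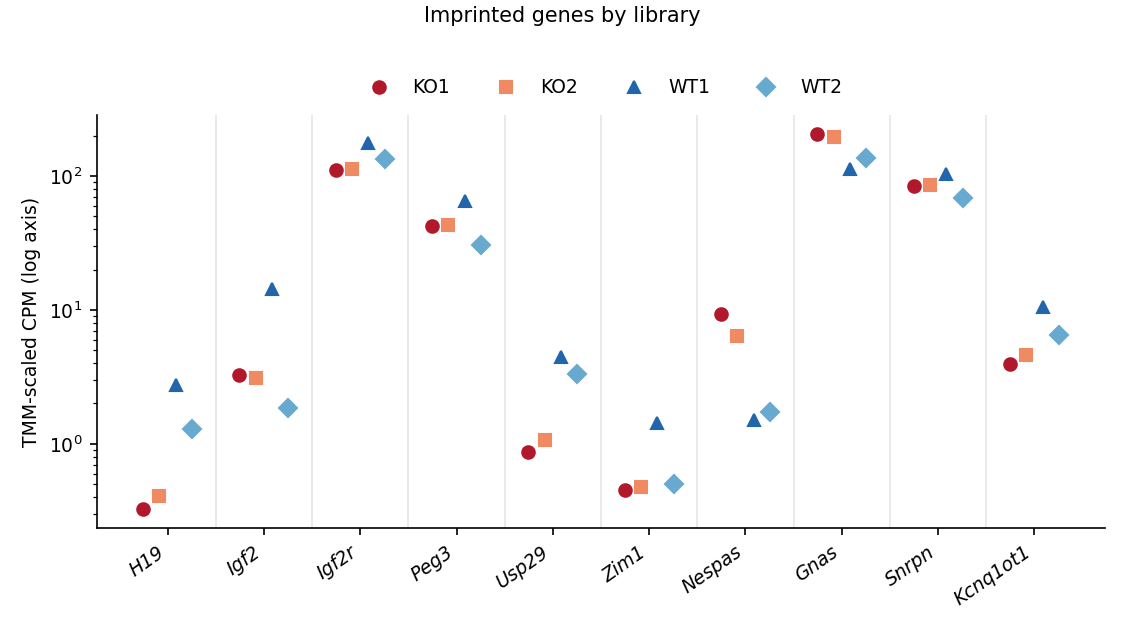
TMM-scaled CPM (log axis) of the 10 imprinted genes, with 1 point for each of the libraries KO1, KO2, WT1 and WT2. The knockout points nearly coincide except for Nespas (9.27 and 6.40 CPM), while Igf2 has 14.3 CPM in WT1 and 1.86 CPM in WT2.

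Differences between the wild-type libraries were wide for these genes. WT2 was lower than WT1 for 8 of the 10, and the ratio of WT2 over WT1 ran from 0.130 for Igf2 to 1.21 for Gnas. KO2 over KO1 ran from 0.691 for Nespas to 1.25 for H19. The wild-type gap was wider than the knockout gap for 9 of the 10, Nespas being the exception, beside 86.1% of all genes with a count in every library. The wild-type libraries differed by over 2-fold for Igf2, Zim1, H19 and Peg3, 4 of 10 genes, beside 19.7% of all genes.

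**Figure D2:**
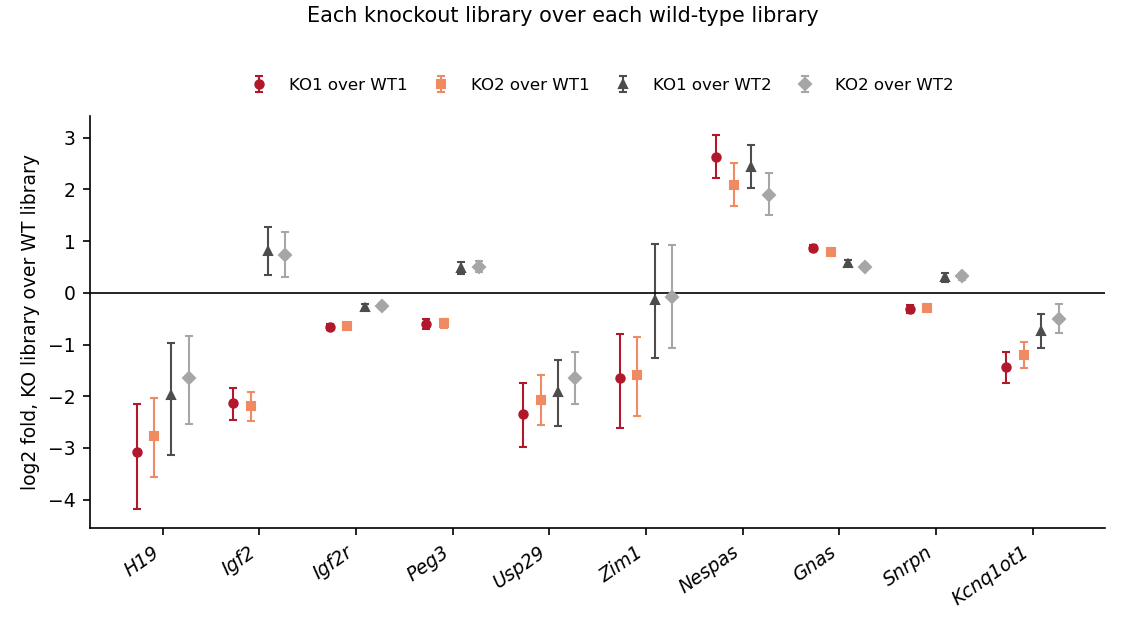
Log2 fold of each knockout library over each wild-type library for the 10 genes, with bars for the 95% exact binomial interval, which covers counting error only. Igf2, Peg3 and Snrpn lie below 0 against WT1 and above 0 against WT2, while all 4 points of Nespas lie between 1.89 and 2.62.

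The H19-Igf2 domain holds a growth factor and a non-coding RNA that share enhancers. H19 (ENSMUSG00000000031, chromosome 7, 142575529 to 142578143, minus strand) is a spliced non-coding RNA whose annotated exons contain the microRNA gene Mir675. It had 0.324 and 0.406 CPM in KO1 and KO2, against 2.76 and 1.28 CPM in WT1 and WT2, from 10 and 18 counts against 110 and 46 counts. Both knockout libraries were low, and H19 was scarce in every library. The 4 ratios ran from 0.118 for KO1 over WT1 (95% counting interval 0.0549 to 0.225) to 0.318 for KO2 over WT2 (0.173 to 0.558). Fitted over all libraries, the log2 fold change of -2.45 ± 0.53 (SE) did not pass (edgeR adjusted p = 0.0617). H19 was called with DESeq2 (adjusted p = 0.00753) and with no filter on low counts (edgeR adjusted p = 0.0305). A block for the replicate number also called it (edgeR adjusted p = 0.0459). The other settings that kept every library did not. Among them were GC content and length trends removed (edgeR adjusted p = 0.0924), library totals alone (0.0779) and upper-quartile scaling (0.0679). With 1 library left out the log2 fold change was -1.77 without WT1, -2.87 without WT2, -2.30 without KO1 and -2.62 without KO2.

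Mir675 (chromosome 7, 142577064 to 142577147, minus strand) had no count in any library, which allows up to 3 counts in each. Its 84 bases all lie within an H19 exon, so a read there can be given to either gene, or to neither, depending on counting options that the sources used here do not give. Its mature arms (RefSeq, GRCm38.p6), shown because H19 is the transcript from which DROSHA cuts this microRNA, have their seeds, bases 2 to 8, in capitals.
mmu-miR-675-5p: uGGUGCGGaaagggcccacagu
mmu-miR-675-3p: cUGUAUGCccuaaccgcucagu

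Igf2 (ENSMUSG00000048583, chromosome 7, 142650766 to 142666816, minus strand) encodes insulin-like growth factor 2, a secreted fetal growth factor. It had 3.24 and 3.11 CPM in KO1 and KO2, against 14.3 and 1.86 CPM in WT1 and WT2. The knockout values lay between the wild types, so that the groups overlapped. The ratios were 0.227 and 0.218 for KO1 and KO2 over WT1, and 1.74 and 1.67 over WT2, and all 4 counting intervals excluded 1. Its fitted log2 fold change was -1.35 ± 0.97 (SE, edgeR adjusted p = 0.358), and without WT1 it turned to 0.77. In the annotation used here 62.8% of the Igf2 exon bases are shared with the same-strand model Gm49394, which is not analysed here. H19 and Igf2 lie 72623 bases apart, and H19 had 10 and 13 counts per 100 Igf2 counts in KO1 and KO2, against 19.3 and 68.7 such counts in WT1 and WT2. None of the 4 neighbours tested around H19 and Igf2 passed in edgeR, 0 had an unadjusted p under 0.05 and DESeq2 called 0. Lsp1, which encodes an actin-binding protein of leukocytes and had the smallest p among them, was fitted at 2.31 ± 0.98 log2 (edgeR adjusted p = 0.167).

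Extra-embryonic endoderm is a lineage in which H19 and Igf2 are abundant. Of 16 of its markers tested, 3 fell and 0 rose, beside 1.94% and 3.51% of all genes, and 13 did not pass. Knockout libraries both lay below the wild types for 13 of the 16 and above them for 2, beside 34.8% and 36.5% of all genes, with a median log2 fold change of -1.89. The endocytic receptor gene Cubn had 2.98 and 2.98 CPM in KO1 and KO2, against 29.9 and 72.1 CPM in WT1 and WT2, and the basement membrane genes Lama1 (log2 fold change -2.09 ± 0.17) and Col4a1 (-1.71 ± 0.25) fell as well (edgeR adjusted p = 0.0482 for each of the 3 genes). The list summed to 746 to 758 CPM in the knockouts and 833 to 997 CPM in the wild types, and single members were near 0 (Afp at most 0.0225 CPM and Ttr at most 0.0902 CPM in any library) or abundant. The lipoprotein gene Apoe had 347 and 337 CPM in KO1 and KO2, against 149 and 56.6 CPM in WT1 and WT2, and the transcription factor gene Hnf4a had 19.7 and 18.9 CPM in KO1 and KO2, against 14.3 and 1.64 CPM in WT1 and WT2. Apoe and Hnf4a were thus higher in both knockouts and lower in WT2 than in WT1, whereas Cubn, Lama1 and Col4a1 were lower in both knockouts and higher in WT2 than in WT1. None of 11 fibroblast and feeder markers tested passed in edgeR (median log2 fold change 1.18, or 0.64 with GC content and length trends removed). Of the 11, 8 had both knockout libraries above both wild types and 0 had both below, beside 36.5% and 34.8% of all genes. An unadjusted p under 0.05 was reached by 6, beside 37.1% of all genes, and DESeq2 called 4, beside 3851 of 17022 genes. These markers summed to 78.2 to 81.9 CPM in the knockouts and 37.4 to 59.1 CPM in the wild types. Dcn, the marker with the smallest p, was at 1.65 CPM in KO1 and 0.541 CPM in KO2, with no count in WT1 or WT2. The filter on low counts kept Dcn, Col3a1 and Col6a3 only through the knockout libraries, so their p-values add no support. Of 6 trophoblast markers tested, Tfap2c rose (log2 fold change 1.08 ± 0.13, edgeR adjusted p = 0.0482), beside 3.51% of all genes, and 5 did not pass. The trophoblast list summed to 126 to 131 CPM in the knockouts and 72.7 to 95.8 CPM in the wild types. Tfap2c alone had 84.7 and 83.4 CPM in KO1 and KO2, against 37.8 and 41.4 CPM in WT1 and WT2. Of the 6 tested, 2 were higher and 0 lower without overlap, beside 36.5% and 34.8% of all genes. Their median log2 fold change was 0.76, or -0.11 with GC content and length trends removed. The part of these cell types in the values of imprinted genes was not tested, and in bulk RNA fewer cells of a type and less RNA per cell cannot be told apart.

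Igf2r (ENSMUSG00000023830, chromosome 17, 12682406 to 12769664, minus strand) encodes the receptor that takes up IGF2 and carries it to lysosomes. It had 111 and 113 CPM in KO1 and KO2, against 176 and 134 CPM in WT1 and WT2. Both knockout libraries were lower, but the wild types lay further from each other than WT2 did from the knockouts. The ratios ran from 0.630 to 0.842, and the log2 fold change of -0.47 ± 0.17 did not pass (edgeR adjusted p = 0.135). The difference from WT2 depended on the scaling. With library totals alone the log2 ratios over WT2 were -0.06 for KO1 and -0.04 for KO2, against -0.28 and -0.25 with TMM scaling. Airn, the paternally expressed antisense RNA that silences Igf2r on its own chromosome, had 1 and 3 counts in KO1 and KO2, against 7 and 4 counts in WT1 and WT2, too few to be tested. None of the 5 neighbours tested passed in edgeR, 0 had an unadjusted p under 0.05 and DESeq2 called 0. Wtap, which encodes a cofactor of RNA methylation and had the smallest p, was fitted at -0.67 ± 0.25 log2 (edgeR adjusted p = 0.138).

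Among the wider genes of the insulin-like growth factor axis, which carries the signal of the IGF2 ligand, 1 of 16 tested rose and 0 fell. Of all genes 3.51% rose and 1.94% fell, and the median log2 fold change of the axis was -0.05. Igfbp2, a secreted binding protein of these growth factors, had 373 and 361 CPM in KO1 and KO2, against 114 and 153 CPM in WT1 and WT2, a log2 fold change of 1.46 ± 0.19 in edgeR (adjusted p = 0.0482) that was -0.03 with GC content and length trends removed. Igf1r, the receptor through which IGF2 signals, had 15.4 and 14.5 CPM in KO1 and KO2, against 22.4 and 12.4 CPM in WT1 and WT2, and the groups overlapped. The mRNA-binding protein gene Igf2bp3, named after its values were seen, had 23.5 and 23.7 CPM in KO1 and KO2, against 42.4 and 222 CPM in WT1 and WT2 (log2 fold change -2.49 ± 0.83, edgeR adjusted p = 0.116).

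The Peg3 domain joins paternally expressed genes that start close together on opposite strands. Peg3 (ENSMUSG00000002265, chromosome 7, 6703892 to 6730431, minus strand), which encodes a large zinc finger protein, and Usp29 (ENSMUSG00000051527, chromosome 7, 6730578 to 6967219, plus strand), which encodes a ubiquitin-specific peptidase, have annotated starts 147 bases apart. The promoter windows of RefSeq (250 bases before to 50 after a start, GRCm38.p6) overlap by 263 bases, so the Usp29 window, chr7:6730333-6730632 on the plus strand, also covers most of that of Peg3. It holds 17 CpG dinucleotides, in capitals, against a median of 7 in 32851 promoter windows, and is shown because a gene that fell and a gene whose groups overlapped share it.
Usp29 promoter: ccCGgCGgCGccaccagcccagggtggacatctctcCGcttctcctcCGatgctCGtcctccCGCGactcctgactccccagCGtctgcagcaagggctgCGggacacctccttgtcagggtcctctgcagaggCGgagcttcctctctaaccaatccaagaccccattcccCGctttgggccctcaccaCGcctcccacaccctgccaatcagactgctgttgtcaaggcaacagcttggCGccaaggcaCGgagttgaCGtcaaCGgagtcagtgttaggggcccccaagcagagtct

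Usp29 had 0.875 and 1.06 CPM in KO1 and KO2, against 4.43 and 3.30 CPM in WT1 and WT2, from 27 and 47 counts against 177 and 119 counts. Both knockout libraries were low, and KO1 and KO2 differed by no more than counting error (ratio 1.21, interval 0.739 to 2.02). The ratios to the wild types ran from 0.197 for KO1 over WT1 to 0.321 for KO2 over WT2, and no counting interval reached above 0.453. The mean of 0.967 ± 0.130 CPM in the knockouts against 3.87 ± 0.798 CPM in the wild types (SD, n = 2 each) corresponded to a fitted log2 fold change of -1.99 ± 0.31 (edgeR adjusted p = 0.0499). That call sat at the threshold and was lost in 7 of 13 alternative settings, among them with GC content and length trends removed (-1.45, edgeR adjusted p = 0.102), with library totals alone (adjusted p = 0.0592), with upper-quartile scaling (adjusted p = 0.0529) and without KO1 or KO2 (adjusted p = 0.480 and 0.356). In the annotation used here 14.3% of the Usp29 exon bases are shared with Zim3 on the opposite strand.

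Peg3 had 42.6 and 43.2 CPM in KO1 and KO2, against 65.0 and 30.4 CPM in WT1 and WT2. The knockouts lay between the wild types, with ratios of 0.655 and 0.664 to WT1 and of 1.4 and 1.42 to WT2. Its log2 fold change was -0.15 ± 0.39 (edgeR adjusted p = 0.796), and it turned to 0.50 without WT1 and to 0.23 with GC content and length trends removed. Relative to its partner, Usp29 had 2.05 and 2.45 counts per 100 Peg3 counts in KO1 and KO2, against 6.82 and 10.9 such counts in WT1 and WT2. The knockouts thus had less Usp29 per Peg3 than either wild type, although Peg3 itself differed by over 2-fold between the wild types.

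Zim1 (ENSMUSG00000002266, chromosome 7, 6671269 to 6696450, minus strand), a zinc finger gene next to Peg3 and expressed from the other parental copy, had 0.454 and 0.473 CPM in KO1 and KO2, against 1.43 and 0.50 CPM in WT1 and WT2. The knockout values and WT2 were nearly equal, from 14, 21 and 18 counts, and WT1 stood above them with 57 counts. The ratios to WT2 were 0.908 and 0.947 with intervals that included 1, and those to WT1 were 0.318 and 0.332 with intervals that excluded it. With all 4 libraries the log2 fold change was -1.05 ± 0.61 (edgeR adjusted p = 0.269). Zim2, Zim3, Zfp264 and Peg3os were not matched in the count table and are not analysed here.

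The Gnas domain held the gene that rose. Nespas (ENSMUSG00000086537, chromosome 2, 174281237 to 174295436, minus strand) is a paternally expressed non-coding RNA antisense to the first exons of Gnas, and the microRNA genes Mir298 and Mir296 lie downstream of it on the same strand. It had 9.27 and 6.40 CPM in KO1 and KO2, against 1.5 and 1.72 CPM in WT1 and WT2, from 286 and 284 counts against 60 and 62 counts. Both knockout libraries were high and the wild types did not differ beyond counting error (WT2 over WT1 1.15, interval 0.790 to 1.66), while KO2 was lower than KO1 by more than counting error (0.691, interval 0.584 to 0.817). The ratios ran from 3.72 for KO2 over WT2 (interval 2.82 to 4.98) to 6.17 for KO1 over WT1 (4.66 to 8.29).

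The mean of Nespas was 7.84 ± 2.03 CPM in the knockouts against 1.61 ± 0.155 CPM in the wild types (SD, n = 2 each), and the fitted log2 fold change was 2.28 ± 0.30 (edgeR adjusted p = 0.0482). Over 13 alternative settings the change ran from 2.00 to 2.53 and stayed positive, but the call was lost in 7 of them, with adjusted p from 0.0520 with upper-quartile scaling to 0.361 without KO1. The exons of Nespas share 988 bases, 31.4% of its exon length, with exons of Gnas on the opposite strand, and the strand setting of the counting is not given in the sources used here, so reads of that stretch may not be separated.

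Reads over the microRNA genes were also more numerous in the knockouts. Mir298 (ENSMUSG00000065410, chromosome 2, 174267504 to 174267585, minus strand) had 38 and 57 counts in KO1 and KO2, against 0 and 0 counts in WT1 and WT2. Mir296 (ENSMUSG00000065521, chromosome 2, 174267047 to 174267125, minus strand) had 32 and 45 counts in KO1 and KO2, against 1 and 0 counts in WT1 and WT2. A poly(A) library does not capture mature microRNAs, so these counts stand for longer RNA over the loci. Set against a floor of 3 counts in WT2, Mir298 was 14.8-fold higher in KO1 and 15.4-fold higher in KO2, and Mir296 was 12.4-fold and 12.2-fold higher. Against the same floor in WT1, Mir298 was 16.4-fold and 17.1-fold higher. The counting intervals over WT2 began lower, at 11.4 and 12.1 for Mir298 and at 9.55 and 9.5 for Mir296. Against the single count in WT1, the ratio of Mir296 was 41.4 for KO1 (counting interval 6.92 to 1690) and 40.5 for KO2 (6.91 to 1630). Both genes were kept by the filter on low counts only through the knockout libraries, so that their calls (edgeR adjusted p = 0.0482 each, and 0.0884 for Mir298 and 0.0924 for Mir296 with GC content and length trends removed) add no support to these counts.

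Mir298 begins 27851 bases and Mir296 begins 28311 bases downstream of the annotated Nespas start, beyond the annotated end of Nespas, so none of their bases lie within an annotated Nespas exon. Their hairpins (RefSeq, GRCm38.p6) are the stretches over which these reads were counted and that DROSHA cuts from a primary transcript. The mature arms are in capitals.
Mir298 hairpin: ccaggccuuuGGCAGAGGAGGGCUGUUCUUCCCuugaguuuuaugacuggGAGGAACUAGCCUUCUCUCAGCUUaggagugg
Mir296 hairpin: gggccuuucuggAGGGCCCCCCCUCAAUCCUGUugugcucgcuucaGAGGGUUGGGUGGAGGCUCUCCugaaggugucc

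The mature arms released from these hairpins are shown with the seed, bases 2 to 8, in capitals, and no 2 of the 4 arms share a seed.
mmu-miR-298-5p: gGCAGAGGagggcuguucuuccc
mmu-miR-298-3p: gAGGAACUagccuucucucagcuu
mmu-miR-296-5p: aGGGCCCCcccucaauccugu
mmu-miR-296-3p: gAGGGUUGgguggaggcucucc

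**Figure D3:**
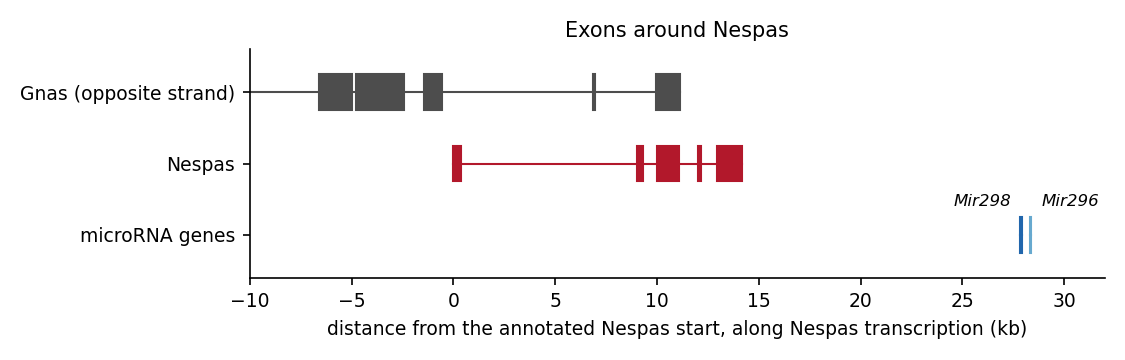
Exons (boxes) of Gnas, Nespas and the microRNA genes against the distance in kb from the annotated Nespas start, counted along Nespas transcription. The microRNA genes lie about 28 kb downstream, beyond the last Nespas exon, and some exons of Gnas and Nespas lie over each other.

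Relative to Nespas, reads over the microRNA genes were also more numerous in the knockouts, a difference that was not tested. Mir298 had 13.3 and 20.1 counts per 100 Nespas counts in KO1 and KO2, against 0 and 0 such counts in WT1 and WT2. Mir296 had 11.2 and 15.8 counts per 100 Nespas counts in KO1 and KO2, against 1.67 and 0 such counts in WT1 and WT2. A floor of 3 counts would stand for 5 per 100 Nespas counts in WT1 and 4.84 in WT2, below all 4 knockout values.

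Gnas (ENSMUSG00000027523, chromosome 2, 174284320 to 174346744, plus strand) encodes the alpha subunit of the stimulatory G protein that links hormone receptors to adenylyl cyclase. It had 206 and 195 CPM in KO1 and KO2, against 113 and 137 CPM in WT1 and WT2. Both knockout libraries were higher, with ratios from 1.42 to 1.82, a smaller difference than that of Nespas. A log2 fold change of 0.68 ± 0.15 did not pass (edgeR adjusted p = 0.0630), and it turned to -0.20 with GC content and length trends removed, where the groups overlapped. The transcripts of Gnas with other first exons, among them the maternally expressed Nesp and the paternally expressed extra-large form, share the gene's later exons and were not counted apart. Nespas had 4.51 and 3.28 counts per 100 Gnas counts in KO1 and KO2, against 1.33 and 1.26 such counts in WT1 and WT2. Of the 7 neighbours tested in the domain, 5 did not pass, and the other 2 were Mir296 and Mir298, which entered the test through the knockout libraries alone. Of the 7, 6 were higher and 1 lower without overlap, beside 36.5% and 34.8% of all genes. An unadjusted p under 0.05 was reached by 6, beside 37.1% of all genes, and DESeq2 called 3, beside 3851 of 17022 genes. Mir296 and Mir298 are among the 6 higher, the 6 with such a p and the 3 called. The median log2 fold change was 0.61, or 0.14 with the trends removed.

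**Figure D4:**
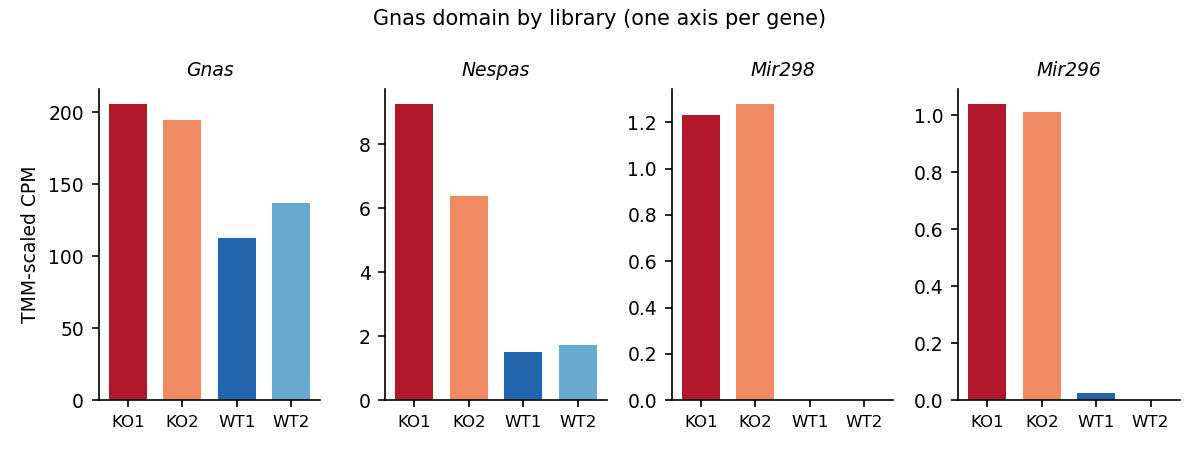
TMM-scaled CPM of Gnas, Nespas, Mir298 and Mir296 in KO1, KO2, WT1 and WT2, with 1 bar per library and an axis for each gene that starts at 0. Mir298 is at 1.23 and 1.28 CPM in the knockouts and at 0 in both wild types.

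Snrpn (ENSMUSG00000102252, chromosome 7, 59982495 to 60140219, minus strand) encodes a splicing protein and lies in the domain deleted or silenced in Prader-Willi and Angelman syndromes in humans. It had 83.7 and 85.2 CPM in KO1 and KO2, against 104 and 68.3 CPM in WT1 and WT2. The knockouts lay between the wild types, with ratios of 0.806 and 0.820 to WT1 and of 1.23 and 1.25 to WT2. Its log2 fold change of -0.03 ± 0.23 did not pass (edgeR adjusted p = 0.939), and its sign changed with the scaling. Same-strand models share its exons: Snurf, with 216 shared bases, had no count in any library, and Gm38393, with 589 shared bases (27.3% of the Snrpn exon length), had 12.6 and 13.4 CPM in KO1 and KO2, against 50.2 and 17.5 CPM in WT1 and WT2. How reads were divided among them is not given in the sources used here.

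Of the 8 neighbours of Snrpn tested, 1 fell and 0 rose, beside 1.94% and 3.51% of all genes, and 7 did not pass. Without overlap 5 were higher in the knockouts and 2 lower, beside 36.5% and 34.8% of all genes. An unadjusted p under 0.05 was reached by 5, beside 37.1% of all genes, and DESeq2 called 3, beside 3851 of 17022 genes. The median log2 fold change was 0.82, or 0.63 with GC content and length trends removed. Ube3a, a ubiquitin ligase gene imprinted in mouse neurons, had 57.2 and 60.5 CPM in KO1 and KO2, against 152 and 113 CPM in WT1 and WT2, and its fitted log2 change of -1.17 ± 0.19 passed (edgeR adjusted p = 0.0499). Once GC content and length trends were removed it was -0.39. Snhg14, the long non-coding host of the domain's small nucleolar RNAs, whose far end runs antisense to Ube3a in neurons, had 56.9 and 59.2 CPM in KO1 and KO2, against 86.5 and 72.3 CPM in WT1 and WT2 (log2 fold change -0.45 ± 0.15, edgeR adjusted p = 0.108, and 0.48 with these trends removed). Ndn, a paternally expressed gene of the MAGE family and, like Snhg14, named after its values were seen, had 9.40 and 8.50 CPM in KO1 and KO2, against 3.48 and 3.89 CPM in WT1 and WT2 (log2 fold change 1.28 ± 0.21, edgeR adjusted p = 0.0501). The other paternally expressed genes Magel2 (log2 fold change 1.37), Mkrn3 (0.57) and Peg12 (1.5), likewise named after their values were seen, were higher in both knockouts than in either wild type and did not pass. With GC content and length trends removed the fitted changes of Snrpn, Snhg14, Ndn, Magel2, Mkrn3 and Peg12 were all above 0, from 0.27 to 1.68.

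Kcnq1ot1 (ENSMUSG00000101609, chromosome 7, 143203458 to 143296549, minus strand) is an unspliced, paternally expressed non-coding RNA that starts inside the potassium channel gene Kcnq1 and silences its neighbours on the same chromosome. Its promoter window (RefSeq, GRCm38.p6, chr7:143296498-143296797, minus strand), shown because it lies at the imprinting control region of the domain, holds 9 CpG dinucleotides, in capitals.
Kcnq1ot1 promoter: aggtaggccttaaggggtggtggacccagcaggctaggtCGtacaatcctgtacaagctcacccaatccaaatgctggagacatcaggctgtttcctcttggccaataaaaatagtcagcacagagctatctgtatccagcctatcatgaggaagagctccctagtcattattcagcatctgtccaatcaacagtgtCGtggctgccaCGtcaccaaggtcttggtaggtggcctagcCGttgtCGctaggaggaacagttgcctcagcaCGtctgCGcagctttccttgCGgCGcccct

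Kcnq1ot1 had 3.92 and 4.62 CPM in KO1 and KO2, against 10.6 and 6.53 CPM in WT1 and WT2, from 121 and 205 counts against 425 and 235 counts. Both knockout libraries were lower, with ratios of 0.368 and 0.434 to WT1 and of 0.601 and 0.708 to WT2, and all 4 counting intervals excluded 1. The log2 fold change of -1.01 ± 0.32 did not pass (edgeR adjusted p = 0.106). It was -0.20 with GC content and length trends removed, where the groups overlapped. The gene is annotated as 1 exon of 93092 bases with a GC content of 40.3%.

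Most neighbours of Kcnq1ot1 had higher levels in the knockouts, although none passed. Of the 11 neighbours tested, 0 rose and 0 fell in edgeR. An unadjusted p under 0.05 was reached by 4, beside 37.1% of all genes, and DESeq2 called 3, beside 3851 of 17022 genes. Kcnq1, among those 4, was kept by the filter on low counts only through the knockout libraries. Of the 11, 8 had both knockout libraries above both wild types and 0 had both below, beside 36.5% and 34.8% of all genes, and the median log2 fold change was 1.00. With GC content and length trends removed 4 of the 11 were higher and 1 was lower, with a median of 0.26, and the median was 1.82 without WT1 and 0.53 without WT2. Phlda2, a maternally expressed gene that restrains placental growth, had the smallest p, with 59.7 and 57.4 CPM in KO1 and KO2, against 13.4 and 5.36 CPM in WT1 and WT2 (log2 fold change 2.64 ± 0.48, edgeR adjusted p = 0.0540, and 1.94 with the trends removed). Cdkn1c, a maternally expressed inhibitor of cyclin-dependent kinases named after its values were seen, had 20.2 and 18.9 CPM in KO1 and KO2, against 11.0 and 4.72 CPM in WT1 and WT2 (log2 fold change 1.31 ± 0.44, edgeR adjusted p = 0.117, and 0.26 with the trends removed). Tspan32, Ascl2 and Nap1l4 overlapped between the groups.

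**Figure D5:**
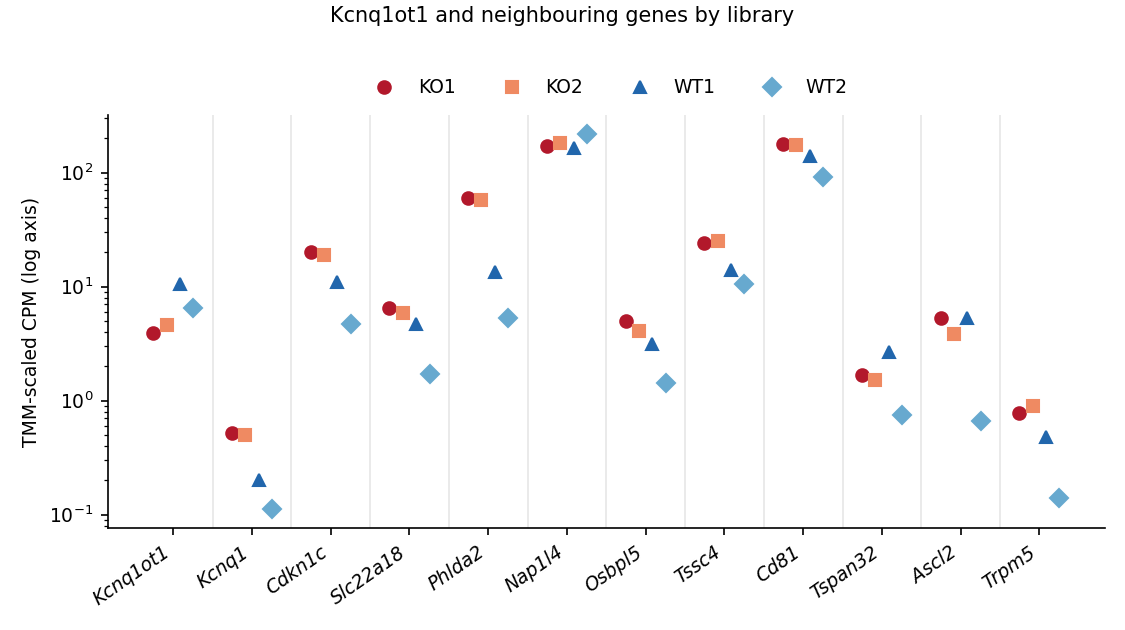
TMM-scaled CPM (log axis) of Kcnq1ot1 and its 11 neighbours in KO1, KO2, WT1 and WT2. Kcnq1ot1 is lower in both knockouts, and 8 neighbours, Phlda2 among them, are higher in both knockouts than in either wild type (4 with GC content and length trends removed).

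Per exon length, the level of the 10 genes spanned a wide range in every library. On the scale of TMM-scaled CPM per kb of merged exon (RPKM), Snrpn was highest at 38.8 and 39.5 RPKM in KO1 and KO2, against 48.1 and 31.6 RPKM in WT1 and WT2. Gnas followed in the knockouts at 18.4 and 17.4 RPKM, and Igf2r at 11.9 and 12.2 RPKM, with no overlap between them. In the wild types their order was reversed, with Igf2r at 18.9 and 14.4 RPKM and Gnas at 10.1 and 12.3 RPKM. Nespas reached 2.95 and 2.04 RPKM in KO1 and KO2, close below Peg3 at 3.20 and 3.24 RPKM, against 0.478 and 0.548 RPKM in WT1 and WT2, where Peg3 had 4.88 and 2.28 RPKM. Igf2 had 0.566 and 0.544 RPKM in KO1 and KO2, against 2.49 and 0.325 RPKM in WT1 and WT2, and H19 had 0.132 and 0.165 RPKM in KO1 and KO2, against 1.12 and 0.519 RPKM in WT1 and WT2. Igf2 lay above H19 in the knockouts, and the pair overlapped in the wild types. Kcnq1ot1, Usp29 and Zim1 were the lowest in the knockouts, at 0.0421 to 0.0586 RPKM, and the neighbours in that order did not differ beyond their spread. These levels rest on merged exons of the annotation used here, which for genes with several promoters are longer than any single transcript.

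Imprinted genes outside these domains were not called in either direction in edgeR: of 26 tested, 0 rose and 0 fell. Fitted changes were above 0 for 6, with a median log2 fold change of -0.32. An unadjusted p under 0.05 was reached by 5, beside 37.1% of all genes, and DESeq2 called 3, beside 3851 of 17022 genes. Of the 26, 3 were higher and 11 lower without overlap, or 7 and 9 with GC content and length trends removed and 3 and 8 with library totals alone, beside 36.5% and 34.8% of all genes. Grb10, which encodes an adaptor that restrains insulin and IGF receptor signalling, had the smallest p, with 158 and 156 CPM in KO1 and KO2, against 283 and 566 CPM in WT1 and WT2 (log2 fold change -1.43 ± 0.36, edgeR adjusted p = 0.0763). Among 15 factors that maintain or erase imprints, likewise 0 rose and 0 fell in edgeR (median log2 fold change -0.32). Of these factors 7 had an unadjusted p under 0.05, beside 37.1% of all genes, and DESeq2 called 7, beside 3851 of 17022 genes. Of the 15, 3 were higher and 7 lower without overlap (2 and 9 with GC content and length trends removed, 4 and 7 with library totals alone), beside the same 36.5% and 34.8% of all genes. Zfp445, a zinc finger gene whose product protects imprints in mouse, had the smallest p, with 35.7 and 36.0 CPM in KO1 and KO2, against 92.7 and 67.4 CPM in WT1 and WT2 (log2 fold change -1.16 ± 0.20, edgeR adjusted p = 0.0514, and -0.69 with GC content and length trends removed). The hexamer TGCCGC, the sequence that the imprint protector ZFP57 binds when methylated, was searched on both strands of the RefSeq promoter windows. It was found in 3 of 17 windows of 8 of the 10 genes (Zim1, Snrpn and Igf2), and in 11.6% of all 32851 windows.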

How the data were processed

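For 4 poly(A) libraries (2 knockout, 2 wild type) the authors deposited raw read counts by Ensembl gene. STAR 2.4.2a, featureCounts 1.4.5-p1 and build mm10 are named in the submitters' processing notes, and the labels call the protocol reverse-stranded. The annotation release, strand setting and treatment of shared or multiply matching reads are not given in the sources used here. Symbols were found for 97.3% of identifiers, and coordinates and exons come from GENCODE M21 (97.5% matched).

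The test was the quasi-likelihood test of edgeR 4.0.16 (R 4.3.3) with TMM scaling, the default filter (count at least 10, total at least 15), group as the only term, a fit over all 17022 genes, Benjamini-Hochberg adjustment and a threshold of 0.05. It was also run on simulated counts with the same spread in every library, unlike the real pairs (chi-square per degree of freedom 2.26 and 167). A GC trend written into them, opposite in the groups, gave many false calls when left in place and few when removed. Whether such a trend gave the calls reported here was not tested. Fold changes, on the log2 scale, have the knockouts on top. Ratios of library pairs have exact binomial 95% intervals, and these and the floor of 3 counts cover counting error only. No exact permutation test was run, since 2 against 2 cannot go below p = 0.333. Alternatives were DESeq2 1.42.0, other scalings, no filter, GC and length trends removed (lowess), single libraries left out and the replicate block. The groups come from the genotype and title labels.

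The genes, lists and rules were chosen with earlier results of these data known. The genes with values in the text are the 10 members, each domain's called neighbours or the one with the smallest p, up to 3 called genes in each direction of each other list or the one with the smallest p, and Mir675, Mir296 and Mir298. Afp, Ttr, Apoe, Hnf4a, Igf1r, Airn, Magel2, Mkrn3, Peg12, Tspan32, Ascl2, Nap1l4, Gm38393, Gm20721, Ins2 and the stem cell markers Pou5f1, Nanog and Sox2 were added after their values were seen. Figures used Python 3.11.15 with matplotlib 3.10.9.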

Additional observations from a re-analysis of the deposited data

How the results depend on the processing

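As reported, 927 genes, 2 of the 10 imprinted genes and 11 genes of the lists were called. DESeq2 called 3851, 5 and 45, and no filter gave 2663, 4 and 34. With GC content and length trends removed, with library totals alone, with upper-quartile scaling, with the knockout libraries summed as 1 sample (added after seeing the data), and with the replicate block plus trends removed, 0 were called in each, while at an unadjusted p under 0.05 edgeR gave 4310, 6116, 6267, 1888 and 3224 genes in that order. With 1 library left out the calls ran from 0 to 13658 over all genes, from 0 to 10 among the imprinted genes and from 0 to 128 in the lists. The high counts came without WT1 or WT2, where the spread rests on the knockout pair, and without KO1 or KO2 0 and 22 genes were called. A single remaining library is taken to vary as the other pair does. Library totals alone moved the median log2 fold change of all genes from -0.02 to 0.13. DESeq2's size factors within edgeR gave 1017 and 2 calls.

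The labels give both groups the numbers 1 and 2. Deviations of KO1 and WT1 from their group means had a correlation of 0.0734 across 17022 genes. KO1 and KO2 differed little (median chi-square per gene 0.756, against 25.8 between WT1 and WT2). The correlation therefore cannot show whether same-numbered libraries shared more than a number. The replicate block gave 1929 calls over all genes, 3 among the imprinted genes, H19 being the addition (edgeR adjusted p = 0.0459), and 32 in the lists.

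The sign of Igf2 turned without WT1 (0.77), with a range of -2.17 to 0.77 over libraries left out. Peg3 turned with trends removed (0.23, and 0.32 with the block) and without WT1 (0.50; range -0.59 to 0.50), and Gnas with trends removed (-0.20, and -0.14 with the block). Snrpn, reported near 0, was at 0.27 with trends removed (0.34 with the block), 0.10 with library totals, 0.00 with the block alone, 0.00 with upper-quartile scaling and 0.31 without WT1 (range -0.29 to 0.31). H19, Igf2r, Usp29, Zim1, Kcnq1ot1, Nespas, Mir296 and Mir298 kept their sign in all 13 settings. Non-overlapping imprinted genes numbered 7, or 6 with library totals and 5 with trends removed. H19, Usp29 and Zim1 rest on few knockout counts (10 to 47), which limits their ratios. The cause of these shifts was not tested.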

Other observations

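Reads over models that share a strand or a stretch with the imprinted genes gave further values. Ins2, an insulin gene next to Igf2 that is imprinted in the mouse yolk sac, had 4 and 22 counts in KO1 and KO2 and no count in WT1 or WT2, and was not tested. Gm20721, a gene model on the strand opposite Gnas that shares 1469 exon bases with it, had 37 and 42 counts in KO1 and KO2, against 2 and 5 counts in WT1 and WT2 (edgeR adjusted p = 0.05, not passed). Whether reads of Gnas were given to this model was not tested, and the strand setting of the counting is not given in the sources used here.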
